A study of Mus musculus with 90 samples.

Results

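Broad domains of H3K4me3 in mouse embryonic stem cells were described by the peaks of Mll2 and Menin that lay inside them. The domains were autosomal regions made by merging overlapping H3K4me3 peaks of 2 libraries, holding a peak of each library and spanning more than 5000 bp from the first to the last base. The members were thus chosen by H3K4me3 peak width. There were 337 such regions, 1.84% of the 18336 H3K4me3 regions that both libraries shared, and they made up 5.43% of the base pairs in those regions. They were set beside the 8161 regions of 2000 to 5000 bp. Width chose the broad regions, so their width and every H3K4me3 value are given as a description and without a test.

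Trimethylation of lysine 4 on histone H3 marks active promoters and promoters poised for later use. It is laid down by COMPASS-type complexes, whose catalytic subunits include Mll2 (Kmt2b), a methyltransferase with a CXXC domain that binds unmethylated CpG dinucleotides. Menin is an adaptor protein of the Mll1 and Mll2 complexes. At most promoters the mark forms a narrow peak around the start of transcription. Domains that spread far beyond it are known from many cell types, where they often lie at genes that define the cell.

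The series has 90 samples, which include ChIP-seq, RNA-seq and 4C of embryonic stem cells and embryoid bodies with intact, deleted or mutated Mll2. The analysis used 5 ChIP-seq peak lists, 1 for each library. The broad regions came from H3K4me3 replicates 1 and 3, which were wild-type V6.5 embryonic stem cells infected with a lentiviral hairpin against GFP, selected with puromycin and precipitated with antibody 28. Mll2 was precipitated from wild-type V6.5 cells with serum 9172 in one library and with serum 9175 in another, and Menin from wild-type V6.5 cells for which no hairpin is labelled. H3K4me3 and the proteins were thus measured in different cell preparations, and the H3K4me3 replicates are not described as separate cultures. No expression values were analysed here, so the cell type rests on the labels.

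The libraries kept 11550409 (Menin) to 21936546 (H3K4me3 replicate 1) tags after duplicates were removed. With 1 library for each serum and for Menin, no test over samples could be made, and regions of a library are not replicates of a condition. Differences between width classes are therefore given with 95% intervals, exact binomial for shares, exact Poisson for numbers of summits and from order statistics for medians. These intervals cover counting error only, and they treat neighbouring regions as independent. Where both sera are available, they serve as 2 measurements of the same protein.

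The broad regions ranged from 5002 to 14025 bp, with a median of 5745 bp (quartiles 5267 and 6632 bp). The regions of 2000 to 5000 bp had a median of 2595 bp (2269 and 3108 bp). Of the broad regions, 56 were over 7000 bp. Near the limit the regions form a continuum, with members of 5002, 5003 and 5004 bp just inside it and regions of 4997, 4986 and 4985 bp just outside it.

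The 2 H3K4me3 libraries did not draw these domains alike. Replicate 1, the deeper library, had a single peak in 314 of the 337 broad regions, while replicate 3 had a single peak in 210, not always along the whole region, and 2 to 4 peaks in the other 127. The widest single peak of a broad region had a median of 5627 bp in replicate 1 and 4277 bp in replicate 3. It passed 5000 bp in 316 regions in replicate 1 and in 81 regions in replicate 3. A single peak over 5000 bp was present in both libraries at 79 regions, and the 81 are also the number of broad regions that replicate 3 gives alone. Width therefore moved with the library, and the part of sequencing depth in it was not tested. In level the classes were close. The median H3K4me3 tags per kb of peak were 349 in broad regions and 337 in regions of 2000 to 5000 bp in replicate 1, and 223 and 221 in replicate 3.

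The widest domain spanned 14025 bp of chromosome 12, between positions 87808157 and 87822181 (all positions are in mouse build mm9). Replicate 1 gave it 1 peak at 258 tags per kb, and replicate 3 gave it 2 peaks, at 135 and 35.8 tags per kb. Mll2 was sparse there, with 3 serum 9172 peaks and 2 serum 9175 peaks that covered 14.9% and 9.44% of the width, at folds of at most 7.35 and 8.83. Menin had 8 peaks in the same domain, more than in any other broad region, and they covered 46.6% of it.

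The second widest, on chromosome 10 from 80596620 to 80610191 (13572 bp), showed another arrangement. Each H3K4me3 library called it as 1 peak. Both sera placed their strongest peak in the left part, with summits 3945 bp (serum 9172) and 3935 bp (serum 9175) from the left end and folds of 23.1 and 26.9. Mll2 covered 22.1% and 37.8% of the domain, and 2 wide Menin peaks of 6728 and 8240 bp covered 99.2% of it.

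The third widest, on chromosome 5 from 143574820 to 143585909 (11090 bp), carried Mll2 along most of its length. Serum 9172 had 6 peaks and serum 9175 had 5, covering 74.4% and 74.8% of the width. The strongest peaks of the sera, with folds of 18.7 and 19.6, had summits 4572 and 4223 bp from the left end, close to the H3K4me3 summits at 4050 and 4098 bp. Menin had 2 peaks there at 118 tags per kb, which together covered 99.5%.

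**Figure D1:**
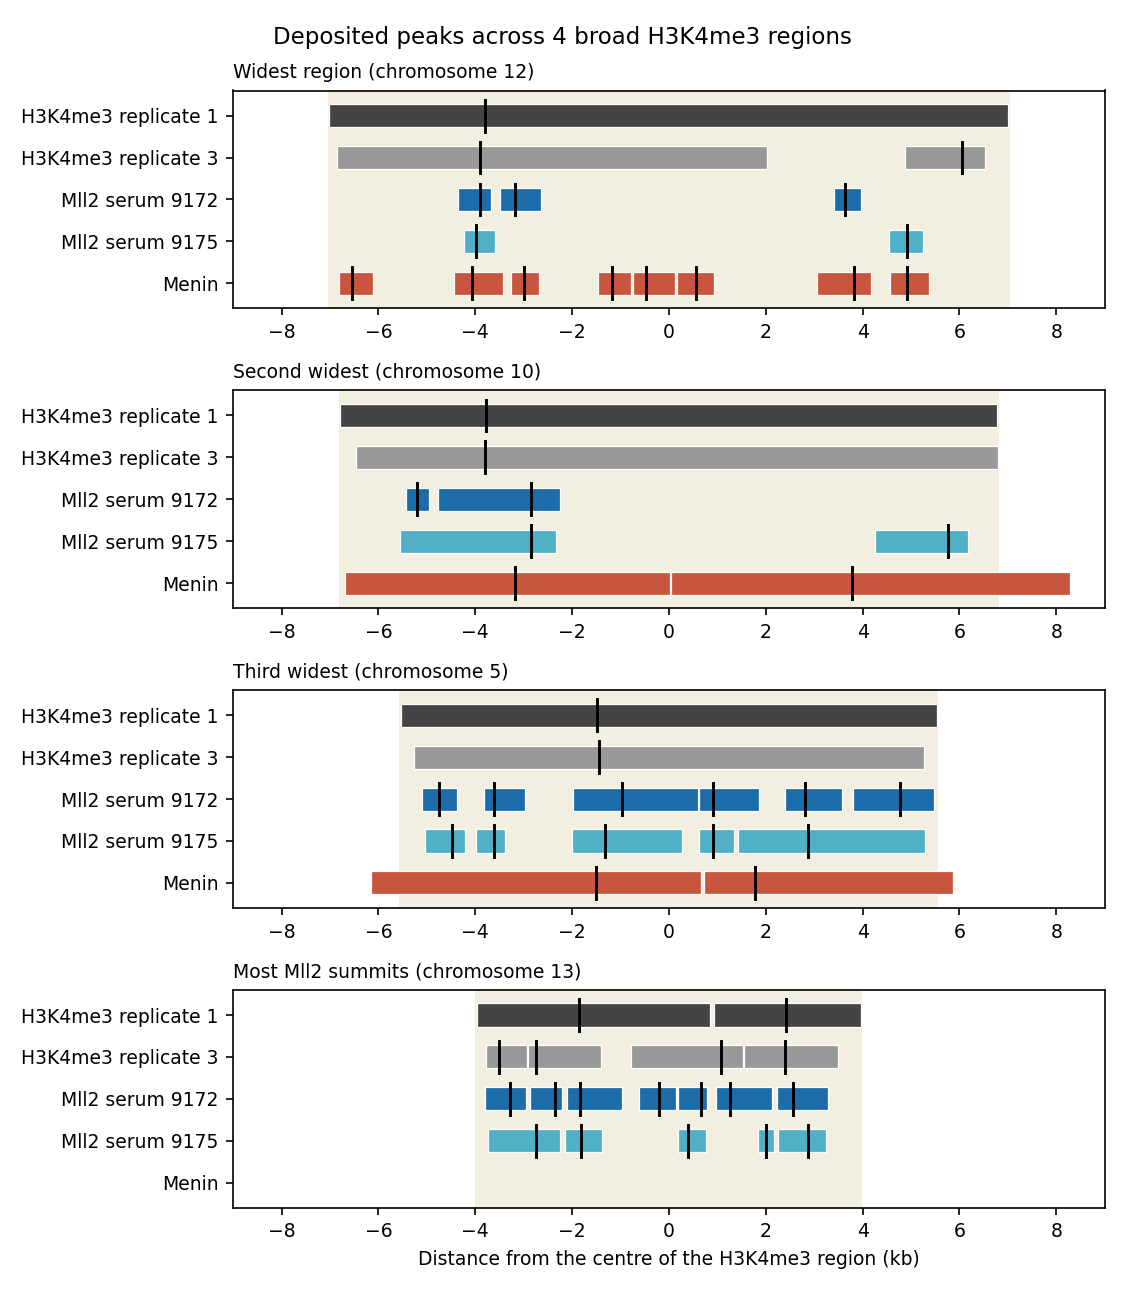
Peaks of the 5 libraries (bars) and their summits (black lines) in the 3 widest broad regions and in the broad region with the most Mll2 summits, against distance in kb from the centre of the region, whose extent is shaded. Mll2 peaks leave long parts of the first 2 domains uncovered, they fill most of the other 2, and the bottom one has no Menin peak.

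The other 7 of the 10 widest members were 9400 to 10893 bp wide, on chromosomes 3, 5, 9, 11, 13, 18 and 19. They held 1 to 5 summits of serum 9172, 1 to 4 of serum 9175 and 2 to 5 of Menin. The region on chromosome 9 from 114465056 to 114474455 had a single Mll2 summit in each serum and 4 of Menin, whereas the region on chromosome 19 from 5794606 to 5804624 had 5 serum 9172 and 4 serum 9175 summits and 2 of Menin. Their shares of width under Mll2 ran from 27.3% to 88.7% in serum 9172, so domains of similar size differed widely in occupancy. Across all 337 members, width and the share of width under a peak were nearly unrelated, with Spearman's rho of -0.02 for serum 9172, -0.03 for serum 9175 and 0.07 for Menin. Width and the number of summits were weakly related, with rho of 0.32, 0.31 and 0.29. These correlations are across regions of single libraries and share the H3K4me3 libraries that set the width.

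Nearly every broad domain was occupied, as were nearly all regions of 2000 to 5000 bp. A summit of serum 9172 lay inside 337 of 337 broad regions, and 0 without one allows a share of up to 1.09% (exact binomial). The share was 98.0% (97.7 to 98.3%) in regions of 2000 to 5000 bp and 84.5% over all 18336 H3K4me3 regions. Serum 9175 was inside 336 broad regions (99.7%, 98.4 to 99.99%), against 97.9% (97.5 to 98.2%) of regions of 2000 to 5000 bp and 86.2% of all. Menin was inside 331 (98.2%, 96.2 to 99.3%), against 98.2% (97.8 to 98.4%) and 88% of all. All 3 were present in 98.2% of broad regions (96.2 to 99.3%) and 96.2% (95.8 to 96.6%) of regions of 2000 to 5000 bp. Presence thus hardly separated the classes, and the share of all regions is lower because narrow regions enter it.

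The mean number of summits per region differed more between the classes, and it rose with width on both sides of the limit. Broad regions held 1.95 ± 1.07 serum 9172 summits, 1.74 ± 0.85 serum 9175 summits and 1.79 ± 0.98 Menin summits (mean ± SD over 337 regions). The regions of 2000 to 5000 bp held 1.11 ± 0.40, 1.07 ± 0.33 and 1.13 ± 0.42 (8161 regions). Next to the limit the means were closer. They were 1.47, 1.34 and 1.46 in regions of 4000 to 5000 bp, and 1.69, 1.52 and 1.60 between 5000 and 6000 bp. At least 2 summits of serum 9172 were found in 57.9% of broad regions (52.4 to 63.2%), against 11.5% (10.8 to 12.2%) of regions of 2000 to 5000 bp and 7.15% of all H3K4me3 regions. For serum 9175 the shares were 53.4% (47.9 to 58.8%), against 8.30% (7.71 to 8.92%) and 5.19% of all. For Menin they were 54.9% (49.4 to 60.3%), against 13.6% (12.8 to 14.3%) and 8.39% of all. Each of the sera had at least 2 summits in 154 broad regions, 45.7% of them (40.3 to 51.2%), and in 5.16% (4.69 to 5.66%) of the regions of 2000 to 5000 bp. The places of the summits were not matched between the sera for this count.

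**Figure D2:**
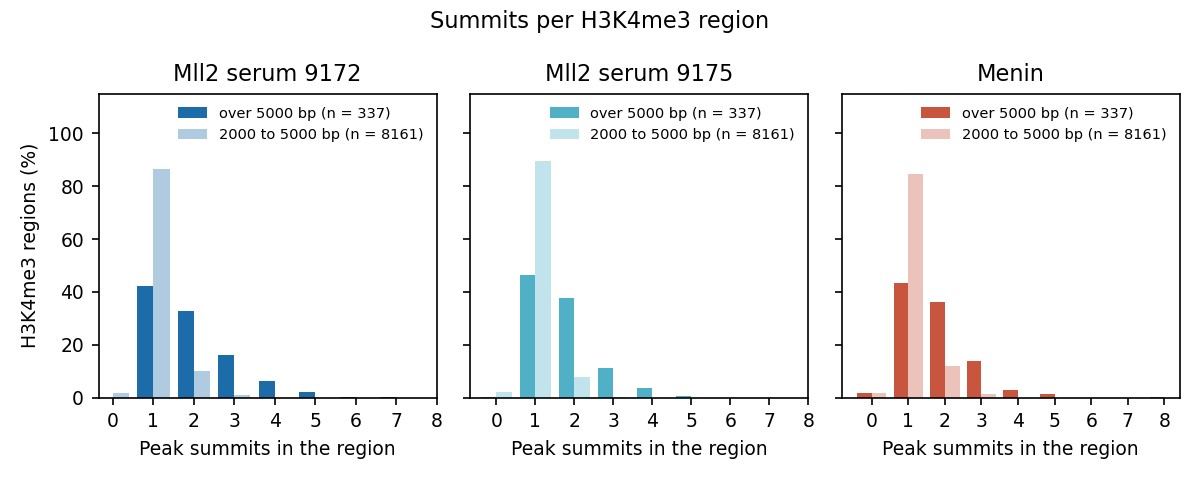
Share of H3K4me3 regions (%) by the number of peak summits inside, for each Mll2 serum and Menin, with regions over 5000 bp in full colour left of regions of 2000 to 5000 bp in pale colour. In each library 53.4 to 57.9% of the broad regions have 2 or more summits, and most regions of 2000 to 5000 bp have 1.

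A wider region can hold more peaks, and per length the order turned round. Broad regions had 0.318 serum 9172 summits per kb (0.294 to 0.343), against 0.399 (0.390 to 0.407) in regions of 2000 to 5000 bp. The values were 0.283 (0.261 to 0.307) against 0.384 (0.376 to 0.392) for serum 9175, and 0.292 (0.269 to 0.316) against 0.407 (0.399 to 0.416) for Menin. The density was 0.431 per kb for serum 9172 in regions of 2000 to 3000 bp and 0.353 in those of 3000 to 4000 bp. It was 0.330 in regions of 4000 to 5000 bp, 0.314 between 5000 and 6000 bp, 0.313 between 6000 and 7000 bp and 0.333 in the 56 regions over 7000 bp. Beyond 4000 bp the intervals overlapped, at about 1 summit in 3 kb. Serum 9175 and Menin had 0.290 and 0.295 per kb over 7000 bp. MACS reports 1 summit for a peak of any width, so a wide peak over several sites counts once.

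The strength of the peaks differed between the proteins. The median of serum 9175 tags per kb of peak was 57.5 in broad regions (55.7 to 60.5) and 67.1 in regions of 2000 to 5000 bp (66.6 to 67.7). For serum 9172 it was 80.7 (77.8 to 83.8) and 86.7 (85.9 to 87.5). Menin had 66.9 (64.2 to 68.8) and 66.7 (66.2 to 67.2). Pooled over the peaks of a region, Mll2 tags per kb were therefore lower in the broad regions with both sera, by more than the counting error. No difference in tags per kb was detectable for Menin. Weaker peaks beside the strongest can lower this pooled value. Broad regions hold more peaks, with 1.95 serum 9172 summits per region against 1.11. The size of that part was not tested. The quartile ranges overlapped widely in each library, for example 49.6 to 70.1 tags per kb in broad regions and 53.7 to 83.7 in regions of 2000 to 5000 bp for serum 9175. When the regions were divided into 3 groups of H3K4me3 level by replicate 1 tags per kb, the Mll2 medians were lower in broad regions in each group with both sera, without intervals. In the group with the most H3K4me3 the serum 9175 medians were 59.1 in broad regions and 72.4 in regions of 2000 to 5000 bp, and in the group with the least 51.1 and 56.9.

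The fold enrichment of the strongest peak in a region, which is the authors' value, gave another order of the libraries. Its median was 20.1 in broad regions and 20.1 in regions of 2000 to 5000 bp for serum 9172, 20.4 and 22.01 for serum 9175, and 13.7 (13.04 to 14.3) and 12.7 (12.5 to 12.9) for Menin. By this measure serum 9172 had equal medians and Menin was higher in broad regions by more than the counting error. The highest fold is taken over more peaks in broad regions, with 1.79 Menin summits per region against 1.13, which can raise it by itself. The size of that part was not tested. In serum 9175 the median tags per kb were lower in each wider bin above 3000 bp, though neighbouring bins mostly overlapped in their intervals, with 67.8 between 3000 and 4000 bp, 61.6 between 4000 and 5000 bp, 59.3 between 5000 and 6000 bp, 57.3 between 6000 and 7000 bp and 53.7 over 7000 bp. Serum 9172 fell less steadily, with 86.2 between 2000 and 3000 bp, 89.1 between 3000 and 4000 bp and 82.3 between 4000 and 5000 bp. It had 83.9 between 5000 and 6000 bp, 78.1 between 6000 and 7000 bp and 76.4 over 7000 bp. Menin had 68.2 between 3000 and 4000 bp and 69.1 over 7000 bp.

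**Figure D3:**
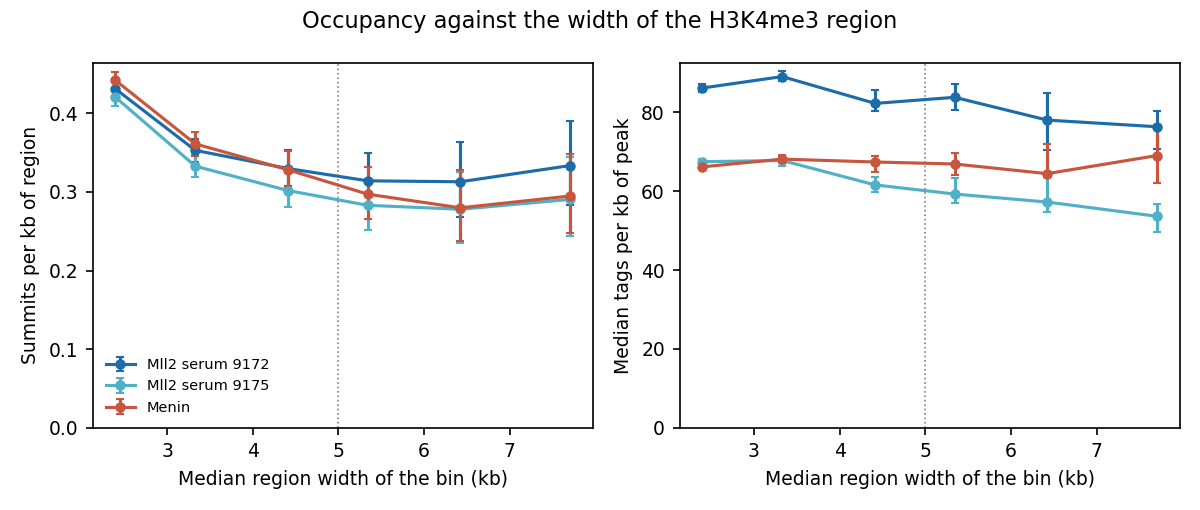
Summits per kb of H3K4me3 region (left) and median tags per kb of peak (right) for each Mll2 serum and Menin, against the median width in kb of regions binned by width, with 95% intervals (exact Poisson on the left, order statistics on the right) and a dotted line at 5 kb. Beyond 4 kb the summit density stays near 0.3 per kb, and the tags per kb of Mll2 are lower in the wider bins while those of Menin stay near 67.

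Mll2 peaks left much of the mark uncovered. Peaks of serum 9172 covered a median of 49.1% of a broad region (quartiles 34.96 and 65.4%), those of serum 9175 51.1% (36.6 and 67.4%) and those of Menin 68.6% (44.3 and 86.7%). In regions of 2000 to 5000 bp the medians were 53.3%, 59.6% and 71.9%. More than 80% of the width lay under serum 9172 peaks in 8.01% of broad regions and 5.42% of regions of 2000 to 5000 bp. The shares were 9.50% and 12.2% for serum 9175, and 34.7% and 37.4% for Menin. In base pairs the broad regions carried more Mll2, with a median of 2927 bp under serum 9172 peaks and 3016 bp under serum 9175 peaks, against 1405 and 1564 bp in regions of 2000 to 5000 bp. The single Mll2 peaks were hardly wider, at a median of 1388 bp in broad regions and 1292 bp in regions of 2000 to 5000 bp for serum 9172, and 1613 and 1487 bp for serum 9175.

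The peaks also differed in where they sat. In broad regions 39.4% of the serum 9172 summits (35.6 to 43.2%) fell in the middle 40% of the width, against 73.3% (72.4 to 74.2%) in regions of 2000 to 5000 bp. For serum 9175 the shares were 36.0% (32.1 to 40.04%) and 75.3% (74.4 to 76.2%). For Menin they were 39.4% (35.5 to 43.4%) and 69.7% (68.8 to 70.6%). The middle share already fell with width below the limit. For serum 9172 it was 79.4% in regions of 2000 to 3000 bp and 65.6% in those of 3000 to 4000 bp. It was 48.25% in regions of 4000 to 5000 bp and 39.0% between 5000 and 6000 bp. Serum 9175 and Menin had 47.3% and 46.2% in regions of 4000 to 5000 bp. Next to the limit the classes were thus much closer than the pooled shares. Summits spread evenly would put 40% there, and the shares of the broad regions were close to that, though their summits were not spread evenly. With the width cut into 10 equal bins, the first and last held the fewest serum 9175 summits, 4.27% and 4.44%. The third held 15.0% and the eighth 14.2%. Of the 2 central bins, the fifth held 10.2% and the sixth 6.83%. For serum 9172 these 2 held 11.55% and 8.66%, so a dip at the centre was not clear. The H3K4me3 summits, which share the rule's data, were also less central, with 52.1% (46.8 to 57.3%) in the middle of broad regions and 83.8% (83.0 to 84.6%) in the middle of regions of 2000 to 5000 bp in replicate 1, and 41.7% and 85.6% in replicate 3.

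**Figure D4:**
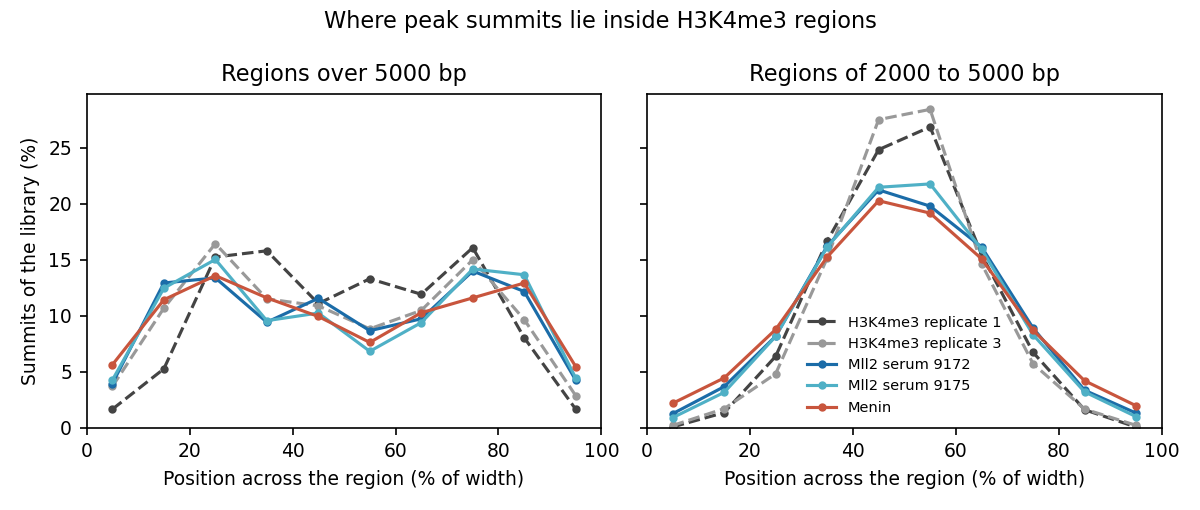
Share of each library's summits (%) in 10 equal bins of the width of the H3K4me3 region, for regions over 5000 bp (left) and of 2000 to 5000 bp (right), with H3K4me3 dashed and the proteins solid. In the broad regions the Mll2 and Menin shares are highest on either side of the centre and lowest at the ends. In the other class they form a single peak at the centre.

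Regions with 1 summit were also looked at alone. In broad regions with a single summit of the library, it lay in the middle 40% in 40.1% of 142 regions for serum 9172 (32.0 to 48.7%), 35.9% of 156 for serum 9175 (28.4 to 44.0%) and 47.3% of 146 for Menin (39.0 to 55.7%). The shares in single-summit regions of 2000 to 5000 bp were 81.9%, 82.3% and 79.6%. Where a broad region had exactly 2 summits, these lay on opposite sides of the centre in 82.9% of 111 regions for serum 9172, 79.5% of 127 for serum 9175 and 82.8% of 122 for Menin, at median distances of 2546, 2624 and 2777 bp from each other. Opposite sides were also the more common place in regions of 2000 to 5000 bp with 2 summits (84.7%, 87.7% and 80.8%), at median distances of 1253, 1425 and 1295 bp.

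Measured from the nearer end, the summits were densest between 1000 and 1500 bp in both classes. The regions of 2000 to 5000 bp had a median width of 2595 bp, so there this zone lies around the centre. In broad regions it lies in the flanks. The match in distance is thus not a shared place within the region. In broad regions the density of serum 9175 summits was 0.095 per kb within 500 bp of an end and 0.315 between 500 and 1000 bp. It was 0.454 (0.385 to 0.532) between 1000 and 1500 bp, the highest value, 0.318 between 1500 and 2000 bp, and 0.208 (0.145 to 0.289) from 3000 bp inwards to the centre. In regions of 2000 to 5000 bp it was also highest between 1000 and 1500 bp, at 0.755 per kb (0.730 to 0.779), with 0.475 between 500 and 1000 bp. Serum 9172 and Menin were likewise densest between 1000 and 1500 bp from an end, at 0.484 and 0.427 per kb in broad regions and 0.751 and 0.725 in regions of 2000 to 5000 bp. For serum 9172 the density from 3000 bp inwards was 0.339 per kb (0.256 to 0.439), and its interval overlapped that of serum 9175.

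The midpoint of the domain was often without Mll2. It lay inside a serum 9172 peak in 57.6% of broad regions (52.1 to 62.9%) and inside a serum 9175 peak in 58.2% (52.7 to 63.5%), against 87.3% (86.5 to 88.0%) and 90.1% (89.4 to 90.7%) of regions of 2000 to 5000 bp. Menin covered it in 72.7% (67.6 to 77.4%) and 93.9% (93.3 to 94.4%). The H3K4me3 peaks ran through the same point in 337 of 337 broad regions in replicate 1 and 324 in replicate 3. The median share of a broad region's width under peaks was 49.1% for serum 9172, 51.1% for serum 9175 and 68.6% for Menin. The midpoint shares were not below these, so they do not show less Mll2 or Menin at the midpoint than elsewhere in the domain. Within 500 bp of the midpoint lay 16.9%, 14.0% and 13.6% of the serum 9172, serum 9175 and Menin summits in broad regions, against 68.2%, 70.1% and 64.9% in regions of 2000 to 5000 bp. Part of this contrast follows from width, since a window of fixed length is a smaller share of a wider region.

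Summits of Mll2 and Menin lay further apart in broad regions. Distances were taken within a region and cannot exceed its width, so part of this contrast can follow from width. The nearest Menin summit of the same region was a median of 389 bp from a serum 9175 summit (quartiles 114 and 1233 bp) in broad regions and 180 bp (66 and 385 bp) in regions of 2000 to 5000 bp. A Menin summit lay within 500 bp of 53.6% of the serum 9175 summits in broad regions (49.5 to 57.7%) and of 80.9% (80.04 to 81.7%) in regions of 2000 to 5000 bp. The sera, which target the same protein, lay further apart as well. A serum 9175 summit lay within 500 bp of 67.6% of the serum 9172 summits (63.9 to 71.2%) in broad regions and of 87.2% (86.5 to 87.8%) in regions of 2000 to 5000 bp. The median distance from a serum 9175 summit to the nearest H3K4me3 summit was 859 bp in broad regions and 261 bp in regions of 2000 to 5000 bp in replicate 1, and 484 and 181 bp in replicate 3.

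Tag densities of the sera ran in parallel among the members, with Spearman's rho of 0.68 over 336 broad regions, and 0.81 over 7924 regions of 2000 to 5000 bp. Serum 9175 and Menin gave 0.37 over 331 broad regions and 0.51 over 7905 regions of 2000 to 5000 bp. H3K4me3 replicate 3 and serum 9172 gave 0.55 and 0.66, and H3K4me3 replicate 3 and Menin 0.13 and 0.36. In all 9 pairs of libraries computed, the coefficient was lower in the broad class. The values are across regions, both sera were called against inputs with the same number of tags, and no chance model was applied.

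The members with several replicate 3 peaks were wider, with a median of 6264 bp against 5522 bp, and held more summits. The 127 regions with 2 or more replicate 3 peaks held 2.22 serum 9172 and 1.98 serum 9175 summits, at 0.341 and 0.303 per kb. The 210 regions with 1 replicate 3 peak held 1.79 and 1.60, at 0.303 and 0.270 per kb. In the 79 regions with a single peak over 5000 bp in both libraries, 40.5% of the serum 9172 summits (33.4 to 48.0%), 38.8% of the serum 9175 summits (31.0 to 47.0%) and 33.5% of the Menin summits (26.5 to 41.2%) lay in the middle 40%, against 39.4%, 36.0% and 39.4% in all 337.

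The region with the most Mll2 summits lay on chromosome 13 from 23661681 to 23669631 (7951 bp). It held 7 serum 9172 summits at 71.8 tags per kb and 5 serum 9175 summits at 42.3 tags per kb, which covered 78.5% and 52.3% of its width, and no Menin peak overlapped it. Its H3K4me3 was below the median of the class, at 200 tags per kb in replicate 1 and 65.5 in replicate 3. Next by number came the region on chromosome 5 described above. It was followed by 3 with equal numbers of Mll2 summits, the region on chromosome 19 described above, one on chromosome 11 from 120090092 to 120099758 (9667 bp) with 5 serum 9172, 4 serum 9175 and 5 Menin summits, and one on chromosome 2 from 115885605 to 115894510 (8906 bp) with 5, 4 and 2.

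Menin was missing from 6 broad regions, and none of the 6 had a Menin peak overlapping at all. The region just named and another on chromosome 13, from 23835076 to 23840078 (5003 bp), had highest folds of 18.0 and 27.8 in serum 9172 and 14.8 and 15.5 in serum 9175, where the medians of all broad regions were 20.1 and 20.4. The other 4 had less Mll2. Those on chromosome 3 from 75453920 to 75460018, chromosome 14 from 22299941 to 22306028 and chromosome 5 from 53946071 to 53951391 had highest folds of 5.21 to 8.33 in serum 9172 and 5.85 to 8.67 in serum 9175. The region on chromosome 1 from 134912300 to 134918184 had 1 serum 9172 summit at a fold of 4.63 and was the single member without serum 9175. The replicate 1 H3K4me3 folds of the 6 were 21.4 to 43.7, all below 46.6, the lower quartile of the broad regions. In replicate 3 they were 12.8 to 61.9, and those on chromosomes 5 and 14, at 54.1 and 61.9, were above that library's lower quartile of 46.9.

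The highest serum 9175 tags per kb among the members were 116 in a region on chromosome 17 from 34051708 to 34058170 (6463 bp). The sera differed there, since a serum 9175 peak reached 232 tags per kb and a fold of 149, while the serum 9172 peak at the same place reached 76.9 tags per kb and a fold of 17.3. Menin had 39.4 tags per kb in the peak at that place. The next, on chromosome 13 from 114402640 to 114409027 (6388 bp), was high with both sera, at 116 tags per kb for serum 9175 and 151 for serum 9172, in 1 peak of each that lay near the right end and covered 27.3% and 20.1% of the width. The summits of the sera were 6181 and 6182 bp from the left end, and the H3K4me3 summits were 5988 bp (replicate 1) and 5996 bp (replicate 3) from it. The other 3 by this ranking, on chromosomes 8, 12 and 18, had 106 serum 9175 tags per kb each and 110.5 to 146 for serum 9172, with 1 or 2 summits of each serum.

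Broad regions were spread over all 19 autosomes. Their share of the H3K4me3 regions of a chromosome ran from 1.07% on chromosome 2 (0.61 to 1.73%, 16 of 1494) and 1.11% on chromosome 12 (0.48 to 2.18%, 8 of 718) to 2.92% on chromosome 8 (1.99 to 4.12%, 31 of 1061) and 2.92% on chromosome 17 (1.93 to 4.22%, 27 of 924). The intervals of chromosomes 2 and 8 did not overlap, but these chromosomes were picked as the extremes of 19.

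Along the chromosome broad regions lay near each other more often than the regions of 2000 to 5000 bp lay near a broad region. Another broad region was found within 50 kb of 8.90% of them (6.09 to 12.5%, 30 of 337), against 4.85% (4.40 to 5.34%, 396 of 8161) of the regions of 2000 to 5000 bp, and 4.57% of all H3K4me3 regions. The values were 4.45% (2.51 to 7.24%) against 2.29% (1.98 to 2.64%) within 20 kb, with overlapping intervals, and 13.4% (9.91 to 17.5%) against 8.34% (7.75 to 8.97%) within 100 kb. At 1000 kb the shares were 42.7% (37.4 to 48.2%) and 39.1% (38.1 to 40.2%), with overlapping intervals, and the median distance to the nearest broad region was 1471 and 1581 kb. Without replicate 1 the shares within 50 kb were 2.47% (0.30 to 8.64%) of broad regions and 1.62% of regions of 2000 to 5000 bp, and 81 broad regions were too few to detect a difference of this size. With a limit of 6000 bp the difference was not detectable either, at 2.86% (0.78 to 7.15%) of broad regions and 2.18% of regions of 2000 to 5000 bp. Neighbours enter the count in pairs, so the intervals of the broad class are too narrow. Broad regions also had an H3K4me3 region of any width close by more often, within 5 kb in 32.6% (27.7 to 37.9%) against 18.7% (17.8 to 19.5%).

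**Figure D5:**
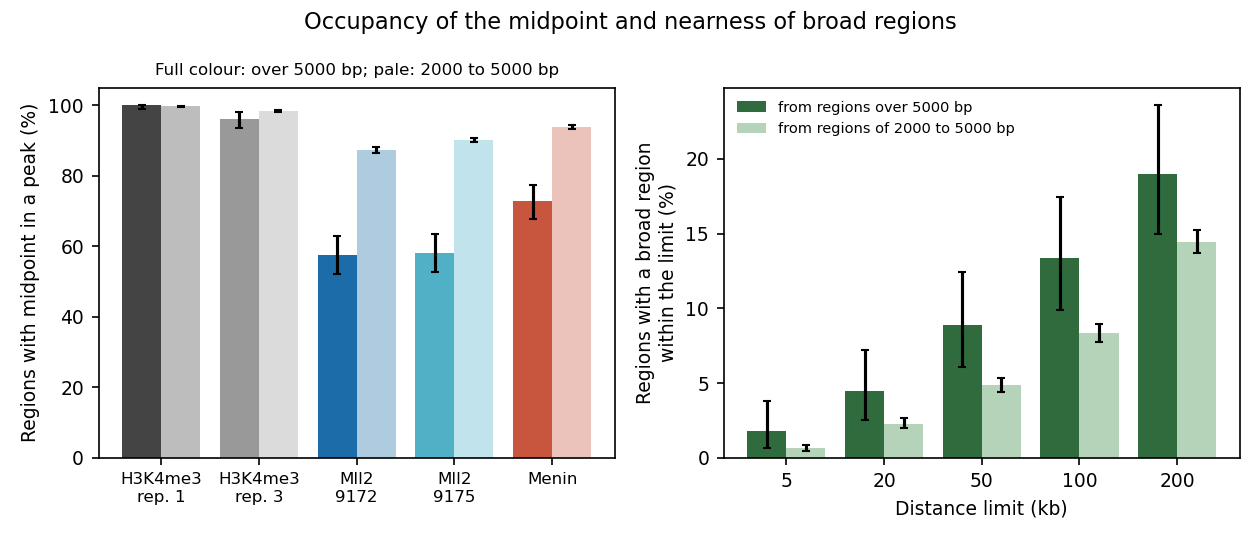
Left, share of regions (%) whose midpoint lies inside a peak of each library, for regions over 5000 bp (full colour) and of 2000 to 5000 bp (pale), and right, share of regions (%) of both classes that have another region over 5000 bp within 5 to 200 kb, all with exact binomial 95% intervals. Mll2 peaks cover the midpoint in 57.6 and 58.2% of broad regions, and broad regions have a broad neighbour within 50 kb in 8.90% of cases.

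When broad regions less than 100 kb apart were joined, 45 of the 337 fell into 21 groups, 18 of 2 regions and 3 of 3 regions, and 292 stood alone. Of the groups of 3, 2 lay on chromosome 8, from 87176672 to 87214636 and from 87499002 to 87563354, 284 kb apart. In the first the domains were 5170, 7393 and 5434 bp wide, separated by 0.99 and 19.0 kb, with 2 serum 9172 summits each and 2, 3 and 2 of serum 9175. The middle one had 633 H3K4me3 tags per kb in replicate 1 and 377 in replicate 3, and a single Menin peak of 7001 bp along 94.7% of it. In the second group the domains were 6461, 5727 and 5558 bp wide, with 2 serum 9172 summits each, 1, 2 and 2 of serum 9175, and 3, 3 and 2 of Menin.

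The third group of 3, on chromosome 13 from 23521635 to 23669631, included the domain with the most Mll2 summits. A pair of broad regions followed 165 kb further on, so that 5 broad regions lay within 336 kb. The members of the group of 3 had 3, 3 and 7 serum 9172 summits and 4, 3 and 5 of serum 9175, and Menin had 4, 2 and 0. Replicate 3 had 4, 2 and 4 peaks in them, and replicate 1 had 1, 1 and 2.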

How the data were processed

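Peak lists of 5 ChIP-seq libraries were used. Per the file headers, the authors called peaks in single libraries with MACS 1.4.2 (p cutoff 1e-05), allowed 1 tag at a position, and used an input with the same number of tags for both Mll2 libraries. The submitters' processing notes name mm9 as the build. Deposited tag counts are raw counts of ChIP tags in a peak. The deposited fold enrichment is a ratio to the background MACS estimated, the deposited score is minus 10 times log10 of p, and the deposited false discovery rate is in percent. Score and rate were not used.

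Autosomal H3K4me3 peaks of replicates 1 and 3 were merged at 1 bp of overlap, and regions with a peak of both were kept (Python 3.11.15, pandas 2.3.3, scipy 1.17.1). A Mll2 or Menin peak was inside where its summit was, and tags per kb are the summed tags of those peaks over their summed width. Shares of width and midpoints used every overlapping peak. Tags dropped as duplicates were 4 to 17% of a library. Region functions were tested on simulated lists. Regions were named by width, number of Mll2 summits, serum 9175 tags per kb, missing proteins, grouping and closeness to 5000 bp. The members, this rule and the comparisons were chosen with earlier results of these data known. No genome or annotation of build mm9 was used here, so regions carry no gene names or sequences.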

Additional observations from a re-analysis of the deposited data

Results flagged for a closer look

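Chromosomes X and Y were outside the autosomal definition, and the lists hold H3K4me3 regions over 5000 bp there too. There were 5 of them among 558 regions of both libraries, a share of 0.896% (0.292 to 2.08%, exact binomial), all on chromosome X. Serum 9172 had a summit in each of the 5, serum 9175 in 4 and Menin in 3.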

How the results depend on the processing

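Of 78 alternative values for 11 results, 36 stayed within the 95% interval of the reported value (for the number of regions, within 1.5 times), 36 moved outside it or are on another scale, and 6 turned round. The highest fold and the single-summit regions were added after the data were seen. Summits per region turned round per kb, to 0.318, 0.283 and 0.292 (serum 9172, serum 9175 and Menin in that order here and below). Menin tags per kb, 66.9 in broad regions, turned round to 66.5 over 6000 bp, to 46.5 over region width and to 66.5 without replicate 1, with 66.7, 48.8 and 69.4 in regions of 2000 to 5000 bp. With a limit of 4000 bp there were 883 regions, with 1.65, 1.49 and 1.59 summits each and 44.2% and 42.3% of Mll2 summits in the middle. Of these, 16.2% had a broad neighbour, against 10.8% of regions of 2000 to 4000 bp. With 6000 bp there were 140, with 2.32, 2.04 and 2.06 summits each, 76.6 serum 9172 tags per kb and 2.86% with a broad neighbour, against 2.18% of regions of 2000 to 5000 bp. A single peak over 5000 bp in both libraries left 79 regions. Peaks of at least 10-fold gave 1.34, 1.31 and 1.01 summits per region and 85.9, 61.6 and 74.6 tags per kb. Regions of 2000 to 5000 bp then had 0.94, 0.95 and 0.76 summits and 90.1, 69.0 and 71.4 tags per kb. Tags over region width were 40.1 and 29.2 for Mll2, against 47.5 and 41.0 in regions of 2000 to 5000 bp. Highest folds were 20.1, 20.4 and 13.7, with 12.7 for Menin in regions of 2000 to 5000 bp. The Menin strength thus depended on the measure. Within 500 bp of the midpoint lay 16.9%, 14.0% and 13.6% of summits. Single Menin summits lay in the middle in 47.3%. Broad neighbours within 20 and 200 kb were 4.45% and 19.0%.

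There were 81 broad regions without replicate 1 and 316 without replicate 3. Summits per region ran from 1.92 to 2.19, 1.72 to 1.77 and 1.79 to 1.88, tags per kb from 76.8 to 81.9, 57.1 to 57.7 and 66.5 to 67.0, and middle summits from 37.9 to 38.8%, 36.1 to 37.8% and 33.6 to 38.1%. Broad neighbours were 2.47% without replicate 1, where 1.62% of regions of 2000 to 5000 bp had one, and 8.23% without replicate 3. The interval without replicate 1, 0.30 to 8.64%, is too wide to tell whether the clustering depends on that library. The cause was not tested. No paired analysis was possible because the sera and Menin have a single library each, and no test between groups was made.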

Other observations

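The stretch of chromosome 13 from 23521635 to 23857240 (336 kb) was looked at as a whole after its values had been seen. It was chosen because its groups of broad regions include members without Menin, so a low Menin share is partly built in. It held 26 H3K4me3 regions of any width, 5 of them broad. Serum 9172 and serum 9175 each had a summit in 26 of the 26, and Menin in 19, a share of 73.1% (52.2 to 88.4%, exact binomial). That interval includes the 88% found over all autosomal H3K4me3 regions. The 5 broad regions held 19 serum 9172, 16 serum 9175 and 9 Menin summits.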
